A study of Mus musculus with 28 samples.

Results

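Glul, Cyp2e1, Cyp1a2, Oat, Slc1a2, Axin2, Lgr5, Tbx3, Rgn and Lhpp are 10 genes that hepatocytes around the central vein of the liver lobule are known to express more than other hepatocytes, or that respond to Wnt signalling there. They were chosen by name, and 10 of 10 were found among the 21935 genes of the count table. Liver messenger RNA was sequenced from 28 male B6.V-Lepob/JRj mice, which lack leptin and become obese, obtained at 5 weeks of age. All 3 groups ate the AMLN diet, rich in trans fat, fructose and cholesterol, for 14 weeks, and stayed on it through 2 weeks of daily oral dosing. The doses were vehicle in 10 mice, 30 mg/kg OCA in 9 mice and 30 mg/kg INT-787 in 9 mice. OCA (obeticholic acid) and INT-787 are both agonists of the farnesoid X receptor (FXR), the nuclear receptor for bile acids. There was no lean or chow-fed group, so the comparisons concern the drugs within 1 obese, diet-fed model.

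Blood enters the lobule at the portal vein and leaves at the central vein, and hepatocytes along this path divide the work between them. Periportal hepatocytes make urea and glucose, whereas pericentral hepatocytes capture the ammonia that escapes as glutamine and carry much of the cytochrome P450 oxidation of drugs. Endothelial cells of the central vein release Wnt ligands and R-spondin 3, which stabilise beta-catenin in the nearest hepatocytes and keep the pericentral genes on. The data are from whole liver, which holds no position, so the zone of each gene is background knowledge. In such samples fewer cells of a type and less RNA per cell cannot be told apart.

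Hepatocyte identity was checked with 6 markers that are not zoned, among which Apoa1 was the most abundant. Their summed level was 19277 to 53053 CPM (counts per 1e6 mapped counts) in vehicle mice, 25829 to 38946 in OCA mice and 26372 to 41187 in INT-787 mice. None of the 6 was at 0 in every mouse. Total counts ranged from 1009593 in vehicle replicate 6 to 22421506, and the next lowest total was 9313260. In vehicle replicate 5, genes lying opposite an abundant gene read too high. Their counts were divided by the counts of the gene opposite times the share of its exon length that overlaps. The median ratio was 1.27, against 0.0626 to 0.181 in the other 27 mice. Both mice were kept, and the counts of called genes and of correlated pairs were also taken without them.

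Promoters of 4 members whose levels moved together between mice are shown, since these are the stretches in which shared motifs could be sought. RefSeq promoters (build GRCm38.p6, 250 bases before to 50 bases after the start) were at hand for 6 of the 10 members. Capitals mark the TCF/LEF core, the letters that the DNA partners of beta-catenin bind, searched as CTTTGAT and CTTTGAA on both strands. The Glul stretch is chr1:153899679-153899978 on the plus strand, that of Slc1a2 chr2:102706188-102706487 on the plus strand, that of Cyp2e1 chr7:140763569-140763868 on the plus strand, and that of Cyp1a2 chr9:57683606-57683905 on the minus strand.
Glul: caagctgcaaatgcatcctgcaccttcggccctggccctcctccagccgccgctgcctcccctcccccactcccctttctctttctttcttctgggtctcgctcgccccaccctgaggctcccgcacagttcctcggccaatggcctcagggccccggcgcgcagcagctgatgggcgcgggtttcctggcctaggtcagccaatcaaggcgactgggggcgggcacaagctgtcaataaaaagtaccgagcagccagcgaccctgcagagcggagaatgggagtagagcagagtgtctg
Slc1a2: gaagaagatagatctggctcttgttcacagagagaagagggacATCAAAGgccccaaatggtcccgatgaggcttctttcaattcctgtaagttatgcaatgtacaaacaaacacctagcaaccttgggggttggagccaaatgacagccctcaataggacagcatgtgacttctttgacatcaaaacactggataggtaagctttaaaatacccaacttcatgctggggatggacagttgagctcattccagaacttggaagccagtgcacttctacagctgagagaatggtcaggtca
Cyp2e1: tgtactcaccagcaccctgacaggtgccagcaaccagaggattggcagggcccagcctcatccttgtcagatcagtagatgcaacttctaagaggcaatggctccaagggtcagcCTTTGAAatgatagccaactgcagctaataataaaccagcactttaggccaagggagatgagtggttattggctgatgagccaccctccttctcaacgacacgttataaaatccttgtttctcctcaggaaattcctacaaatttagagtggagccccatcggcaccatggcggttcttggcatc
Cyp1a2: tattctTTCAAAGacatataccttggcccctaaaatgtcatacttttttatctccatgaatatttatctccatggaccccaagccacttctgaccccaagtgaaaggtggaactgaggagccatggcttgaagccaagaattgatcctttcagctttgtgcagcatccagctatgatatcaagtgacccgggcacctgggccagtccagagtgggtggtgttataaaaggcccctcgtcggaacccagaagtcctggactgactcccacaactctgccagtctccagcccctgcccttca
The Slc1a2 stretch holds CTTTGAT, read on the other strand, 207 bases before the start that RefSeq gives; that start lies inside the annotated gene interval printed further on, downstream of its 5′ end. Cyp2e1 holds CTTTGAA 135 bases before its start, and Cyp1a2 holds the same letters on the other strand 244 bases before its start. No match lay in these windows of Glul, Oat or Axin2. One or the other core was present in 3 of the 6 member promoters, in 2 of 15 periportal promoters and in 8.65% of all 32851 promoters. The nuclear receptor half-site AGGTCA was in 2 of the 6, Glul and Slc1a2, in 5 of 15 periportal promoters and in 16.3% of all promoters. A match is a description of the letters and not a bound site.

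Levels between genes were compared per length, as RPKM (CPM per kilobase of exon). In vehicle mice the order was Cyp2e1 (2656 ± 664 RPKM, mean ± SD, n = 10), Rgn (432 ± 99.8), Glul (352 ± 70.9), Oat (113 ± 24.4), Cyp1a2 (85.3 ± 29.3), Lhpp (15.6 ± 4.06), Slc1a2 (5.76 ± 1.76), Tbx3 (3.25 ± 0.76), Axin2 (1.11 ± 0.29) and Lgr5 (0.33 ± 0.11). Rgn overlapped Glul, Oat overlapped Cyp1a2 and Slc1a2 overlapped Tbx3 in their ranges over mice. The other neighbours in this order did not overlap in vehicle mice.

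Few of the pericentral genes passed the test with either drug. With INT-787, 1 of the 10 genes fell, Lhpp, and none rose. With OCA, 0 of 10 passed the test, and between the drugs 0 of 10 passed. Tests were by edgeR quasi-likelihood, p values were adjusted by Benjamini-Hochberg over 12580 genes, and a gene was called at an adjusted p of at most 0.05. Over all genes tested, 19.6% were called for INT-787 against vehicle, 6.6% for OCA against vehicle and 5.38% for INT-787 against OCA. By direction, 9.48% fell with INT-787 and 2.45% with OCA, and 2.19% were higher and 3.19% lower under INT-787 than under OCA. At an unadjusted p under 0.05 the members numbered 1, 3 and 1, beside 4065, 2332 and 2378 of the 12580 genes. DESeq2 called 1, 2 and 1 of the members, beside 2708, 951 and 915 of all genes. The median log2 fold change of the 10 genes was -0.03 with INT-787 and -0.23 with OCA, beside medians of -0.00 and 0.02 over all genes tested. Without vehicle replicates 5 and 6 the counts were again 1, 0 and 0.

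**Figure D1:**
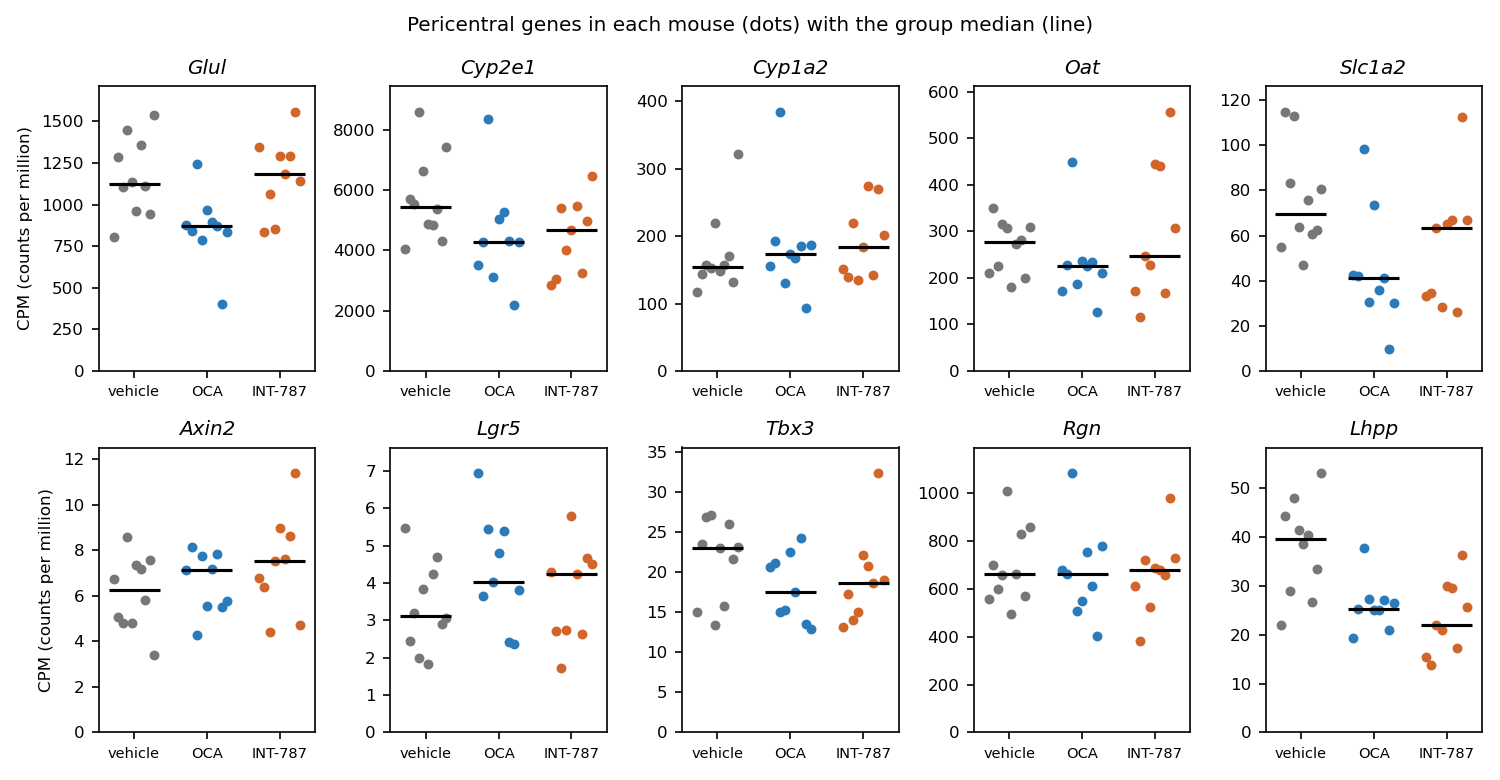
Level of each pericentral gene (y axis, CPM from 0) in the 10 vehicle, 9 OCA and 9 INT-787 mice (x axis); each dot is 1 mouse and the line is the group median. The groups overlap for every gene, and Glul, Slc1a2 and Lhpp sit lower in most OCA mice than in most vehicle mice.

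Glul (ENSMUSG00000026473, chr1:153899944-153909723, plus strand) encodes glutamine synthetase, which joins ammonia to glutamate and is made by the hepatocytes next to the central vein. Its lowest, median and highest levels were 806, 1126 and 1539 CPM in vehicle mice, 405, 874 and 1247 CPM in OCA mice, and 834, 1181 and 1558 CPM in INT-787 mice. Of the 9 OCA mice, 8 lay under the vehicle median and 2 under every vehicle mouse, while the INT-787 mice spread over the same range as vehicle. The log2 fold change was -0.45 (SE 0.15, 95% interval -0.75 to -0.15) for OCA against vehicle, with an edgeR adjusted p of 0.063. For INT-787 against vehicle it was 0.00 (95% interval -0.29 to 0.30, edgeR adjusted p = 0.989), and for INT-787 against OCA 0.45 (95% interval 0.15 to 0.76, edgeR adjusted p = 0.072). These calls sat near the threshold. The OCA difference passed with DESeq2 (-0.46, adjusted p = 0.0287), without vehicle replicate 1 (-0.50, edgeR adjusted p = 0.0343) and without OCA replicate 3 (-0.53, edgeR adjusted p = 0.0227). The difference between the drugs passed with DESeq2 (adjusted p = 0.0378) and without OCA replicate 3 (0.54, edgeR adjusted p = 0.0239), INT-787 replicate 2 or INT-787 replicate 4, and dropped to 0.30 (edgeR adjusted p = 0.268) without OCA replicate 8 and INT-787 replicate 8. Over 116 bases the exons of Glul overlap those of Teddm2 on the opposite strand, which read at most 2.36 CPM by plain totals in 27 mice and 32.6 in vehicle replicate 5.

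Slc1a2 (ENSMUSG00000005089, chr2:102658659-102790784, plus strand) encodes a glutamate transporter that brings substrate to the same cells. The lowest, median and highest levels were 46.9, 69.7 and 115 CPM with vehicle, 9.62, 41.3 and 98.4 CPM with OCA, and 25.98, 63.2 and 113 CPM with INT-787. Below every vehicle mouse lay 7 of 9 OCA mice and 4 of 9 INT-787 mice, and the other mice of both groups overlapped vehicle. OCA against vehicle gave -0.77 (SE 0.29, 95% interval -1.35 to -0.18) on the log2 scale, with an edgeR adjusted p of 0.114. INT-787 against vehicle gave -0.47 (95% interval -1.05 to 0.11, edgeR adjusted p = 0.265). The OCA difference passed with limma-voom (-0.97, adjusted p = 0.0399) and without OCA replicate 3 (edgeR adjusted p = 0.0247). The INT-787 difference passed only when OCA replicate 8 and INT-787 replicate 8 were both left out (-0.67, edgeR adjusted p = 0.0393). Those mice were chosen after the data were seen, because members were extreme in them. Between the drugs the difference was 0.30 (95% interval -0.29 to 0.89), and -0.04 without those mice.

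Oat (ENSMUSG00000030934, chr7:132557478-132576398, minus strand) encodes ornithine aminotransferase, which turns ornithine towards glutamate. It read 181, 277 and 351 CPM (lowest, median and highest) in vehicle mice, 126, 226 and 449 in OCA mice and 117, 247 and 557 in INT-787 mice. INT-787 mice spread more widely than vehicle, with 3 of 9 below and 3 of 9 above all vehicle mice. The coefficient of variation was 21.7% in vehicle, 39.1% in OCA and 50.7% in INT-787 mice, a difference in spread that was not tested. Log2 fold changes were 0.16 (95% interval -0.30 to 0.63) for INT-787, -0.21 (-0.68 to 0.25) for OCA and 0.38 (-0.10 to 0.85) for INT-787 against OCA. None passed, with edgeR adjusted p values of 0.677, 0.698 and 0.411.

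Cyp2e1 (ENSMUSG00000025479, chr7:140763739-140774987, plus strand) encodes the cytochrome P450 that oxidises ethanol and paracetamol. Levels ran from 4036 through a median of 5452 to 8591 CPM in vehicle mice, from 2184 through 4268 to 8360 in OCA mice, and from 2847 through 4665 to 6470 in INT-787 mice. In each drug group most mice were under the vehicle median, 8 of 9 with OCA and 7 of 9 with INT-787, and the ranges overlapped. The log2 fold changes were alike in size, -0.35 (95% interval -0.74 to 0.03, edgeR adjusted p = 0.321) with OCA and -0.36 (95% interval -0.75 to 0.02, edgeR adjusted p = 0.184) with INT-787. The drugs differed by -0.01, with an interval of -0.40 to 0.39.

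Cyp1a2 (ENSMUSG00000032310, chr9:57676937-57683703, minus strand) encodes a P450 that metabolises caffeine and is induced through the aryl hydrocarbon receptor. It read 117, 155 and 321 CPM in vehicle, 93.3, 173 and 384 in OCA, and 135, 184 and 274 in INT-787 mice (lowest, median and highest). The 3 ranges overlapped over most of their length. Log2 fold changes were 0.11 (95% interval -0.30 to 0.51) with OCA, 0.15 (-0.25 to 0.56) with INT-787 and 0.04 (-0.37 to 0.46) between the drugs.

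Lhpp (ENSMUSG00000030946, chr7:132610638-132706420, plus strand) encodes a phosphatase that removes phosphate from histidine, and it was the member with the clearest change. Lowest, median and highest levels were 21.9, 39.5 and 53.0 CPM with vehicle, 19.3, 25.2 and 37.8 CPM with OCA, and 13.9, 21.9 and 36.4 CPM with INT-787. All 9 INT-787 mice and all 9 OCA mice lay under the vehicle median, although each group overlapped vehicle. It fell by 0.68 on the log2 scale with INT-787 (SE 0.17, 95% interval -1.02 to -0.34, edgeR adjusted p = 0.0038). With OCA the difference was -0.53 (95% interval -0.87 to -0.19) and its edgeR adjusted p of 0.0503 lay just above the threshold. INT-787 against OCA gave -0.15 (95% interval -0.50 to 0.19), so a difference between the drugs was not detected. The INT-787 call was lost when all libraries were thinned to the depth of the smallest (-0.43, edgeR adjusted p = 0.189). The OCA difference passed in 12 of 41 alternatives, DESeq2 among them (-0.55, adjusted p = 0.0226).

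Rgn (ENSMUSG00000023070, chrX:20549787-20562089, plus strand) encodes regucalcin, a calcium-binding lactonase. It read 494, 661 and 1010 CPM in vehicle, 403, 663 and 1083 in OCA and 380, 679 and 980 in INT-787 mice, so the group medians were within a few percent of each other. Log2 fold changes were -0.05 (95% interval -0.37 to 0.27) with OCA and -0.07 (-0.39 to 0.25) with INT-787.

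Axin2 (ENSMUSG00000000142, chr11:108920349-108950783, plus strand) encodes a scaffold of the complex that destroys beta-catenin and is itself a feedback target of Wnt signalling. Its levels were 3.38, 6.27 and 8.60 CPM in vehicle, 4.26, 7.15 and 8.17 in OCA and 4.398, 7.52 and 11.4 in INT-787 mice. Above every vehicle mouse lay 3 of 9 INT-787 mice and 0 OCA mice. The log2 fold change was 0.29 (95% interval -0.06 to 0.63, edgeR adjusted p = 0.246) with INT-787 and 0.12 (95% interval -0.23 to 0.47, edgeR adjusted p = 0.795) with OCA. Lgr5 (ENSMUSG00000020140, chr10:115450311-115587780, minus strand), a receptor for R-spondins, was the lowest member at 1.84, 3.12 and 5.46 CPM in vehicle, 2.36, 4.01 and 6.93 in OCA and 1.71, 4.25 and 5.80 in INT-787 mice. Vehicle replicate 6 held 2 counts of it, so that mouse adds little. Its log2 fold changes were 0.07 (95% interval -0.38 to 0.52) with INT-787 and 0.29 (-0.16 to 0.74) with OCA. Tbx3 (ENSMUSG00000018604, chr5:119670669-119684724, plus strand), a transcription factor that is a Wnt target in liver, read 13.5, 23.1 and 27.2 CPM in vehicle, 12.9, 17.6 and 24.3 in OCA and 13.2, 18.6 and 32.3 in INT-787 mice. Under the vehicle median lay 8 of 9 mice of each drug group, with log2 fold changes of -0.25 (95% interval -0.57 to 0.08) for OCA and -0.16 (-0.49 to 0.16) for INT-787. Neither passed. Exons of Slc1a2, Axin2 and Tbx3 overlap antisense genes over 189, 209 and 115 bases, and those genes are not among the rows of the table.

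**Figure D2:**
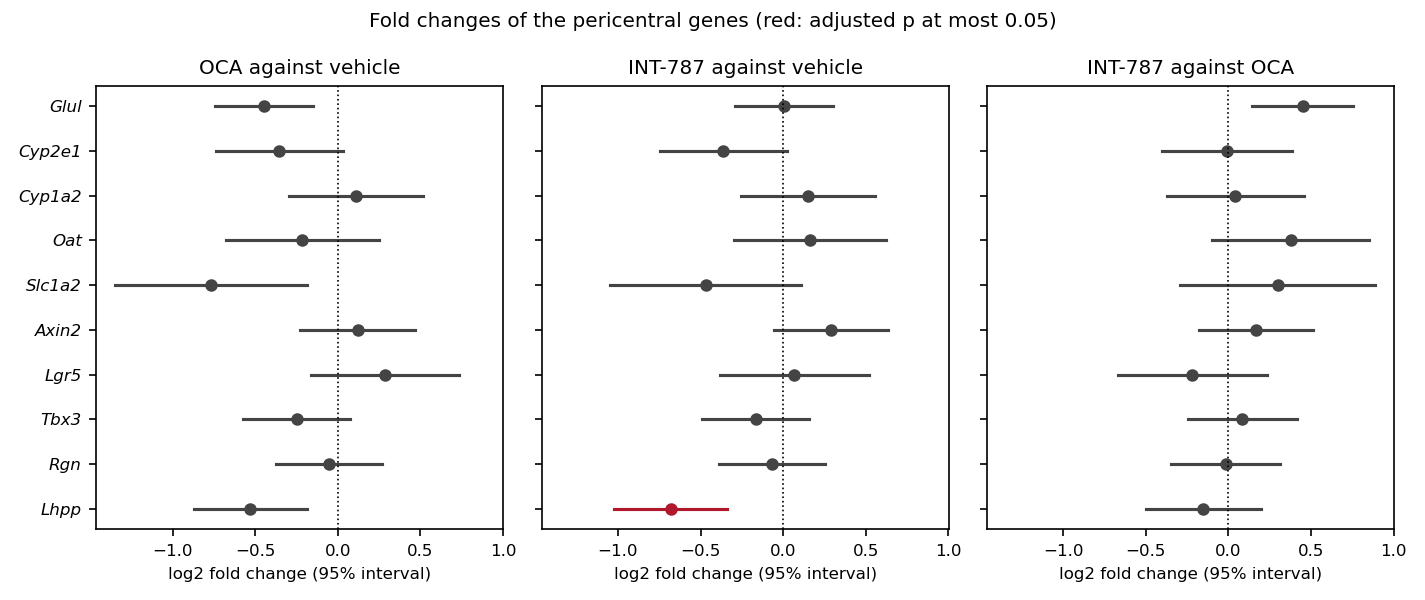
Log2 fold change (x axis) of each pericentral gene (y axis) in the 3 comparisons, with the 95% interval as a bar; red marks an adjusted p of at most 0.05. Lhpp with INT-787, at -0.68, is the only red entry, and the intervals of Glul, Slc1a2 and Lhpp with OCA and of Glul for INT-787 against OCA also leave out 0.

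Periportal genes were compared as the opposite zone, in a list chosen with earlier results of these data known. Of 20, 15 rose and 1 fell with INT-787 (median log2 fold change 0.95), and 11 rose with OCA (median 0.66). The medians of the 10 members were -0.03 and -0.23, and those of 18 other pericentral genes 0.25 and 0.01. Over all genes tested, 10.2% rose with INT-787 and 4.15% with OCA. Hal, which degrades histidine, went from a mean of 103 CPM in vehicle to 498 CPM with INT-787 (log2 fold change 2.27, edgeR adjusted p = 4.1e-16) and 411 CPM with OCA (2.00, edgeR adjusted p = 1.5e-14). Ass1, an enzyme of the urea cycle, went from 708 to 1900 CPM with INT-787 (1.42, edgeR adjusted p = 5.3e-11) and 1433 CPM with OCA (1.02, edgeR adjusted p = 2.0e-07). Without vehicle replicates 5 and 6, 14 rose with INT-787 and 9 with OCA. Both drug comparisons use the same vehicle mice. Of the 20, 3 were higher with INT-787 than with OCA and 0 lower, beside 2.19% and 3.19% of all genes. When 1 mouse was left out, 2 to 5 were higher. Ass1 was among the 3 (0.41, edgeR adjusted p = 0.0332), a call that held in 31 of 41 alternatives.

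In each mouse the mean log2 CPM of the 20 periportal genes was set against that of the 10 pericentral genes. The difference was 1.69, 1.86 and 2.03 (lowest, median and highest) in vehicle mice, 2.36, 2.68 and 3.45 in OCA mice, and 2.32, 2.94 and 3.24 in INT-787 mice. No mouse of either drug group overlapped vehicle, whereas the 2 drug groups overlapped each other. The separation from vehicle is a description and not a test, since the lists were chosen with earlier results of these data known. The pericentral mean alone ran from 6.48 to 6.99 in vehicle, 5.72 to 7.12 in OCA and 6.11 to 7.28 in INT-787 mice, and overlapped. The periportal mean alone ran from 8.49 to 8.92, from 8.96 to 9.61 and from 9.30 to 9.63.

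**Figure D3:**
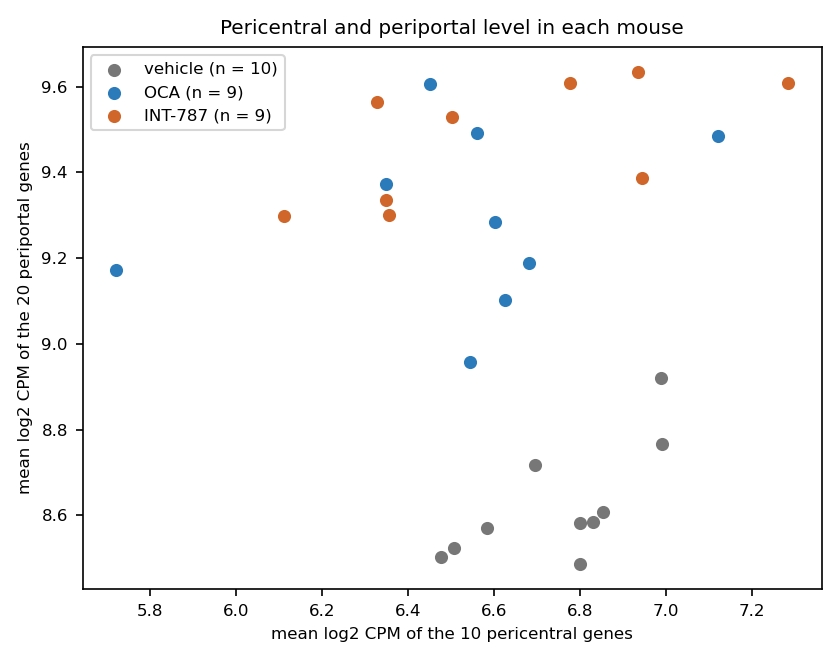
Mean log2 CPM of the 10 pericentral genes (x axis) and of the 20 periportal genes (y axis), 1 dot per mouse, coloured by group. Every OCA and INT-787 mouse lies above every vehicle mouse on the y axis, 8.96 or more against 8.92 or less, and the groups overlap on the x axis.

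Among 18 other pericentral genes, 3 rose with INT-787, all glutathione S-transferases, and 1 fell. That share called with INT-787 is near the 19.6% over all genes, so the INT-787 counts do not set this list apart. The median log2 fold change of the 18 was 0.25 with INT-787 and 0.01 with OCA, with 14 and 9 of them above 0. For INT-787 against OCA it was 0.32, with 14 above 0. The medians over all genes tested were -0.00, 0.02 and -0.01. Gstm3 went from 639 CPM in vehicle to 2253 CPM with INT-787 (log2 fold change 1.82, edgeR adjusted p = 1.6e-08) and to 1036 CPM with OCA (0.70, edgeR adjusted p = 0.0184). Gstm1 and Gstm2 changed by 0.56 and 0.74 with INT-787. Reads of these near-identical family members may be split between them. With OCA 1 of the 18 rose (Gstm3, not called without vehicle replicates 5 and 6) and 2 fell, among them the retinal dehydrogenase Aldh1a1 (-0.53), beside 4.15% of all genes that rose and 2.45% that fell. Gstm1, Gstm2 and Gstm3 were higher with INT-787 than with OCA, by 0.63, 0.56 and 1.12, and these were 3 of the 18 beside 2.19% of all genes. The Gstm2 call between the drugs was lost with thinned counts (edgeR adjusted p = 0.0534) and without OCA replicate 1, OCA replicate 6, INT-787 replicate 3 or INT-787 replicate 6 (edgeR adjusted p from 0.0524 to 0.0576).

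Of 8 other Wnt target genes tested, 3 rose with INT-787 and 2 with OCA, beside 10.2% and 4.15% of all genes tested that rose. Ccnd1, the cyclin that starts the cell cycle, went from 137 CPM in vehicle to 395 CPM with INT-787 (1.53, edgeR adjusted p = 3.1e-10) and 260 CPM with OCA (0.93, edgeR adjusted p = 1.3e-05). It was higher with INT-787 than with OCA by 0.60 (edgeR adjusted p = 0.0064). Notum, a secreted enzyme that inactivates Wnt proteins, went from 11.95 to 24.02 CPM with INT-787 (1.01, edgeR adjusted p = 5.0e-05) and 18.2 CPM with OCA (0.61, edgeR adjusted p = 0.0238). The OCA call of Notum was lost with the replicate block (edgeR adjusted p = 0.0547), with thinned counts, and without vehicle replicate 2, OCA replicate 3 or OCA replicate 7. Rnf43, a ubiquitin ligase that removes Wnt receptors, rose by 0.43 with INT-787 (edgeR adjusted p = 0.0389), a call that was lost in 11 fits that each left out 1 mouse. Axin2, Lgr5 and Tbx3 passed in none of these comparisons.

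**Figure D4:**
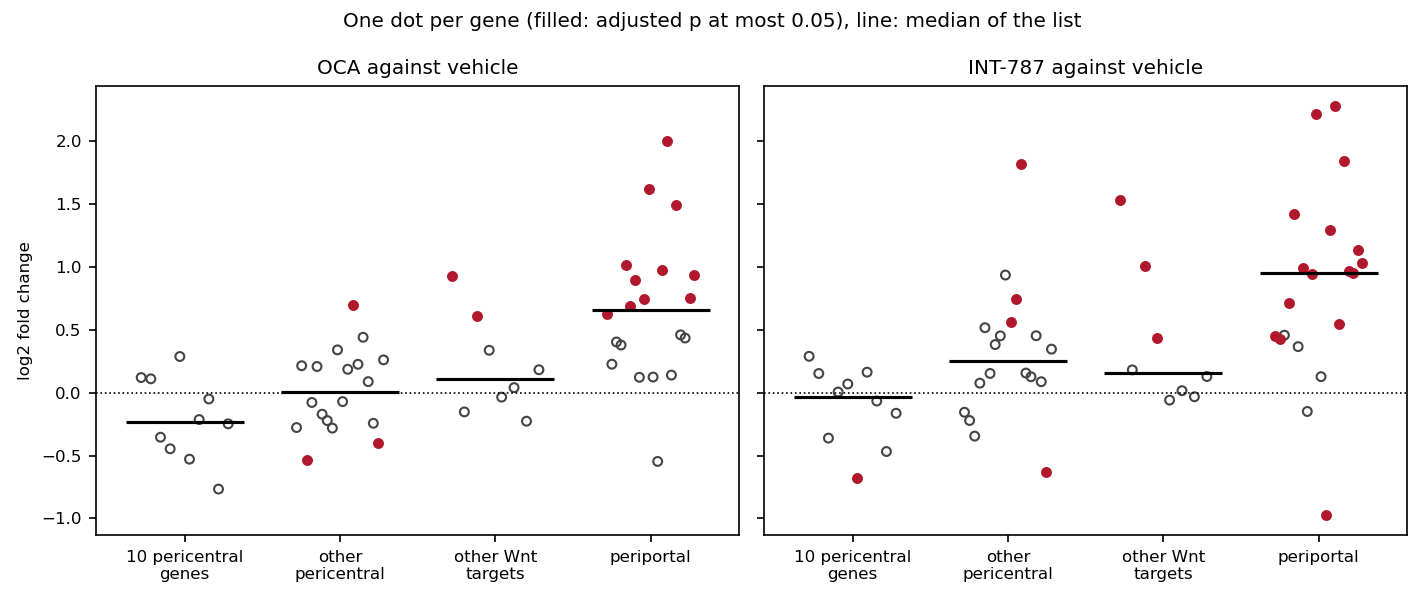
Log2 fold change against vehicle (y axis), 1 dot per gene, for the 10 pericentral genes, other pericentral genes, other Wnt targets and periportal genes (x axis), for OCA and INT-787; filled dots have an adjusted p of at most 0.05 and lines are list medians. Periportal medians are 0.66 and 0.95, those of the 10 pericentral genes -0.23 and -0.03. Those of the other pericentral genes are 0.01 and 0.25, and those of the other Wnt targets 0.11 and 0.15.

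Genes upstream of these targets were tested too, beside the 19.6% of all genes called with INT-787 and 6.6% with OCA. Among 8 ligands, R-spondins and their transport genes tested, Wnt5b rose (0.68) and Wls, which carries Wnt proteins to the cell surface, fell by 0.65 with INT-787. Rspo3, the R-spondin of the central vein, fell by 0.40 with OCA (edgeR adjusted p = 0.0431) and read -0.32 with INT-787 (edgeR adjusted p = 0.063). Its OCA call was weak too: it held in 21 of 40 alternatives and failed in 13 of 28 leave-one-out fits, without vehicle replicates 5 and 6 (edgeR adjusted p = 0.059), with the replicate block (edgeR adjusted p = 0.13) and with thinned counts (-0.16, edgeR adjusted p = 0.841). Among 11 receptors and secreted inhibitors, Fzd5 and Fzd8 rose and Dkk3 fell with INT-787, and Fzd8 and Lgr4 rose with OCA. The calls of Fzd5 with INT-787 and of Lgr4 with OCA were also weak, holding in 24 of 40 and 19 of 41 alternatives, and neither held without vehicle replicates 5 and 6. The Dkk3 call with INT-787 was lost in 3 fits that each left out 1 mouse, vehicle replicate 7, vehicle replicate 9 or INT-787 replicate 9. That of Fzd8 with INT-787 was lost without INT-787 replicate 8 and with upper-quartile normalization (edgeR adjusted p = 0.0728). Thinned counts ended the calls of Dkk3 (-0.43, edgeR adjusted p = 0.368) and Fzd8 (0.26, edgeR adjusted p = 0.487) with INT-787. They also ended that of Fzd8 with OCA (0.23, edgeR adjusted p = 0.662). Between the drugs, INT-787 mice had less Dkk3 (-1.07), Sfrp1 (-1.28) and Wls (-0.60, edgeR adjusted p = 0.0156), beside 3.19% of all genes that were lower. The Wls call was lost without OCA replicate 8 and INT-787 replicate 8 (-0.38, edgeR adjusted p = 0.0862). The Sfrp1 difference was -0.69 (edgeR adjusted p = 0.173) without OCA replicate 8, and its call held in 30 of 39 alternatives. Of 14 genes for beta-catenin and its partners, Dvl2 alone was called, at -2.25 with INT-787 and -2.24 with OCA. Vehicle replicate 5 read 183 CPM of Dvl2 while the other vehicle mice read 3.39 to 5.94 CPM, and without it the differences were 0.08 and 0.09.

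Markers of other liver cells were set beside the 9.48% of all genes that fell with INT-787 and the 2.45% that fell with OCA. Of 6 central vein endothelial markers 1 fell with each drug. With OCA it was Rspo3, already counted among the ligands and R-spondins, and 0 fell with OCA without vehicle replicates 5 and 6. The summed level of the 6 was 42 to 72 CPM in vehicle, 30 to 52 in OCA and 25 to 53 in INT-787 mice. Vwf was the most abundant. Of 7 sinusoidal endothelial markers 1 fell with INT-787, and of 6 cholangiocyte markers 1 fell. Single falls in lists this short say little beside that background. By direction, 6 of 6 central vein markers lay below 0 with OCA (median log2 fold change -0.45) and 5 of 6 with INT-787 (-0.36). For the sinusoidal markers it was 7 of 7 (-0.26) and 6 of 7 (-0.28). For the cholangiocyte markers it was 2 of 6 (0.16) and 6 of 6 (-0.33). These directions were not tested as sets. Of 8 macrophage markers 4 fell and of 8 stellate and myofibroblast markers 5 fell with INT-787. The macrophage count was 2 without vehicle replicate 1, INT-787 replicate 1 or INT-787 replicate 7, and 3 without vehicle replicates 5 and 6, and the stellate count was 5 to 6 when 1 mouse was left out. The sinusoidal, cholangiocyte, macrophage and stellate lists had no call with OCA. The stellate sum was 1162 to 2114 CPM in vehicle and 447 to 1073 CPM in INT-787 mice, which do not overlap. No marker of these lists was at 0 in every mouse. Their part in the members' values was not tested.

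The 7 metabolic members varied together between mice of a group, whereas most pairs with Axin2, Lgr5 or Tbx3 did not pass. With group means removed, 22 of the 45 pairs of members correlated over the 28 mice (Pearson, permutation of mice within groups, adjusted p at most 0.05 over the 45 pairs), each positively. Without vehicle replicates 5 and 6 the count was again 22. These were all 21 pairs of the 7 metabolic genes Glul, Cyp2e1, Cyp1a2, Oat, Slc1a2, Rgn and Lhpp, and the pair Slc1a2 and Tbx3. Over the 21 pairs r ran from 0.58 to 0.83 (median 0.71) and Spearman's rho from 0.50 to 0.83, with permutation p values adjusted to between 9e-05 and 0.0039 for r and between 9e-05 and 0.0177 for rho. By r the closest pair was Oat and Lhpp (r = 0.83, rho = 0.82, permutation p = 1e-05 for each, the smallest that 100000 permutations can give). By rho it was Oat and Slc1a2 (rho = 0.83, r = 0.80). No pair of Axin2 with the 7 passed, with r from -0.36 against Cyp1a2 to 0.00 against Oat, and Lgr5 and Tbx3 did not correlate with each other (r = 0.03). Axin2 and Cyp1a2 passed as a negative pair without OCA replicate 8 (r = -0.46, permutation p = 0.0409 after adjustment) and without INT-787 replicate 8 (r = -0.51, permutation p = 0.0146 after adjustment). All of a mouse's values share a library and its scaling. The share of other gene pairs that would pass the same test was not computed, so these counts have no background beside them.

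A few mice carried much of this. OCA replicate 8 was lowest of its group in 7 of the 10 members and OCA replicate 3 highest in 7, while INT-787 replicate 8 was highest in 7. When the 2 mice farthest from the median of the first gene were left out of each pair, 19 of the 21 metabolic pairs still passed, with r from 0.41 to 0.80. Without OCA replicates 3 and 8 and INT-787 replicate 8 together, a choice made after the data were seen, 13 of the 21 passed and the median r was 0.57. Within single groups the median r of the 21 pairs was 0.64 in vehicle, 0.86 in OCA and 0.77 in INT-787 mice, and 0, 11 and 7 pairs passed, with exact permutation for the drug groups.

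**Figure D5:**
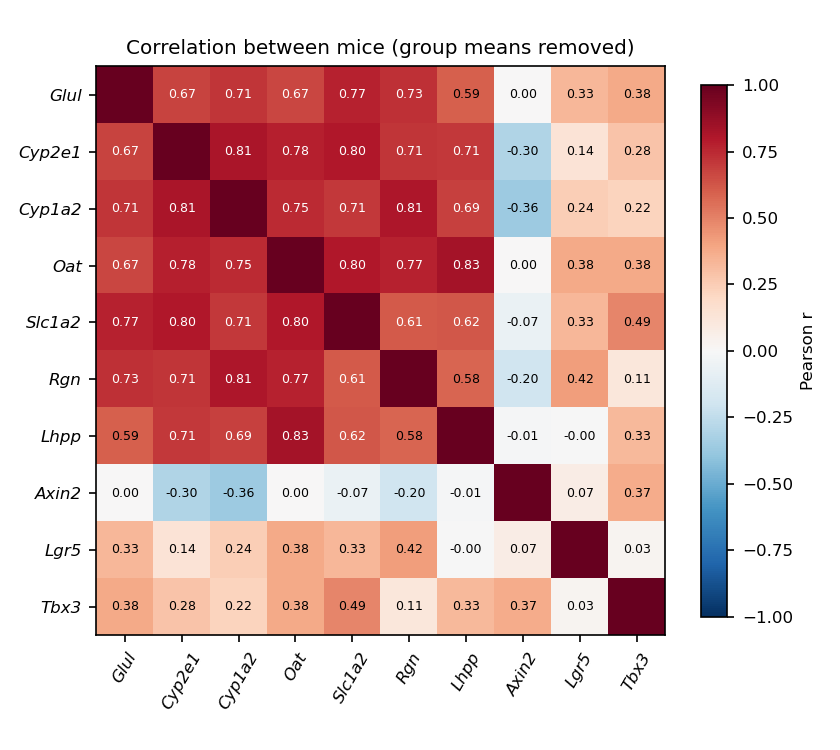
Pearson r between members over 28 mice after group means were removed, as a colour from blue (-1) to red (1) with the value in each cell. The block of 7 metabolic genes holds values from 0.58 to 0.83, and the Axin2 row lies between -0.36 and 0.37.

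Among all 12579 other genes, those most like Glul over mice were Tpm2 (r = 0.81), Phyh (0.78), Abhd3 (0.78), Slc1a2 (0.77) and Dpys (0.76), given as a description. Without OCA replicate 8 their r was 0.68, 0.76, 0.72, 0.64 and 0.63, so the order depends on that mouse. Rgn stood at rank 13, Cyp1a2 at 20, Cyp2e1 at 42, Oat at 44 and Lhpp at 145, whereas Axin2 stood at 6245. Those most like Axin2 were Brd2 (r = 0.70), Cog3 (0.70), Zswim9 (0.67), Mta2 (0.66) and Tnik (0.66). The member nearest to Axin2 was Tbx3, at rank 610.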

How the data were processed

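The authors sequenced polyA-selected liver RNA with a stranded kit, aligned reads to GRCm38 (Ensembl 89) with STAR and deposited raw counts per gene for each mouse. The counting program and its strand setting are not given in the sources used here. Of 21935 genes, 21858 matched a symbol in GENCODE M21. Mice were grouped by their labels. Genes kept by filterByExpr (12580) were normalized by TMM and tested with edgeR 4.0.16 (R 4.3.3) by the quasi-likelihood test in 1 model of the 3 groups, with Benjamini-Hochberg adjustment, following the threshold of the study, which used DESeq2. Labels of separate mice made them replicates, and no pair of a group agreed within sampling noise (chi-square per degree of freedom at least 2.97). CPM use TMM-scaled totals and RPKM the exon length. On simulated counts for INT-787 against vehicle with 12504 genes, 48 of 100 genes changed by 0.5 and 93 of 100 changed by 1 (log2) were recovered.

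Correlations used log2 CPM with a prior count of 2. The named genes were the 10 members, up to 4 called genes per list and comparison with the largest change (mean level 1 CPM or more), and the 5 genes most like Glul and Axin2. A gene that the rule selects is not reported here and stays in all counts and tests. The members and lists were chosen with earlier results of these data known. Alternatives were other normalizations, filters and tools (DESeq2 1.42.0, limma 3.58.1), thinned counts, and leaving out each mouse. Counting error was small for most members: the lowest count of Axin2 was 8 and of Lgr5 was 2, both in vehicle replicate 6.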

Additional observations from a re-analysis of the deposited data

Results flagged for a closer look

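A gap test within each group (Dixon's test at the 95% level, which chance passes in about 1 of 20 groups) was run on 30 groups of member values and 6 of library properties, and 9 values stood apart. OCA replicate 3 stood above the other OCA mice in Cyp2e1 (8360 CPM, next 5261), Cyp1a2 (384 CPM, next 192), Oat (449 CPM, next 236) and Lhpp (37.8 CPM, next 27.3). INT-787 replicate 8 stood above its group in Slc1a2 (113 CPM, next 67.0) and Tbx3 (32.3 CPM, next 22.1). Vehicle replicate 10 stood above its group in Cyp1a2 (321 CPM, next 219).

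Among library properties, the total of vehicle replicate 6 (1009593 counts, next 9313260) and the ratio of opposite-strand counts in vehicle replicate 5 (1.27, next 0.12) stood apart.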

How the results depend on the processing

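Each of the 30 member differences (10 genes, 3 comparisons) was recomputed under up to 41 alternatives, 1218 values in all. The call changed in 25 of these, none with a turned direction, and 24 of the 30 differences kept their call throughout. Leaving out 1 mouse gave 1 called member for INT-787 each time, 0 to 3 for OCA (2 without vehicle replicate 1, 3 without OCA replicate 3) and 0 to 1 between the drugs, and 2116 to 2733, 666 to 936 and 443 to 888 called genes, the lowest of the last without OCA replicate 8. For OCA, 2 members were called with upper-quartile normalization, with at least 10 counts in every mouse and with DESeq2, and 1 with the DESeq2 size factors, with limma-voom and with only the 2 groups compared. Between the drugs DESeq2 called 1. Thinning to the smallest library left 0 members with INT-787 and 1035, 427 and 276 genes; fewer counts enter that fit. An adjusted p of at most 0.01 left 1334, 435 and 247 genes. Leaving out OCA replicate 8 and INT-787 replicate 8 together, chosen after the data were seen, gave 2 members with INT-787 and 365 genes between the drugs. Upper-quartile normalization moved the share of called genes that rose from 51.7% to 37.5% with INT-787 and from 62.9% to 52.3% with OCA; the cause was not tested. Dvl2 turned direction in both drug comparisons. With INT-787 it read 0.0691 with DESeq2, 0.0691 without vehicle replicates 5 and 6, and -2.39 to 0.0771 when 1 mouse was left out. With OCA it read 0.0773, 0.0824, and -2.39 to 0.0909; the mouse behind 0.0771 and 0.0909 was vehicle replicate 5.

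Correlated pairs numbered 21 to 24 when 1 mouse, or the 2 farthest, were left out, 0 within vehicle, 11 within OCA, 7 within INT-787, and 14 (13 positive, and Axin2 with Cyp1a2 negative at -0.55) without OCA replicates 3 and 8 and INT-787 replicate 8. The labels do not say that a replicate number marks a shared litter, batch or day, and the numbers were not taken to pair the mice: of 27 same-numbered pairs, 11 had deviations correlated above 0.1 (r from -0.24 to 0.43), against 52 of 234 other pairs, and 9 of 28 mice correlated best with their own number. A replicate block gave 2417, 868 and 677 called genes and 1, 0 and 0 members. With it the calls of Rnf43, Fzd5 and Dvl2 with INT-787 (adjusted p = 0.121, 0.104 and 0.458), Notum, Rspo3, Lgr4 and Dvl2 with OCA (0.0547, 0.13, 0.119 and 0.597) and Sfrp1 between the drugs (0.0934) were lost. Sets of neighbouring sample numbers in the labels deviated together somewhat more (13 of 25 pairs above 0.1, median r 0.11 against -0.01 for other pairs); with the set as a factor, 2710, 807 and 654 genes and 1, 0 and 0 members were called, and the calls of Wnt5b with OCA (adjusted p = 0.009), Aldh1a1 with INT-787 (0.0438) and Hal and Hsd17b6 between the drugs (0.0362 and 0.0411) were gained. Those of Lgr4 with OCA (0.0796), Sfrp1 between the drugs (0.0961) and Dvl2 with INT-787 (0.407) and OCA (0.591) were lost. Low depth limits Lgr5 and Axin2 most, above all in vehicle replicate 6.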
